A study of Mus musculus with 8 samples.

Results

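Microglia are the resident macrophages of the brain, and the complement system is the cascade of plasma-type proteins that tags cells and synapses for removal by them. A list of 34 mouse genes of microglia and complement was followed in bulk RNA-seq of brain cortex. The members were given by symbol and matched to the Ensembl identifiers of the deposited table, in which 28 of the 34 had a row among 15693 genes. These comprised all 11 homeostatic microglial genes (Cx3cr1 to Sall1), 10 of 14 disease-associated genes (Trem2 to Ccl6) and 7 of 9 complement genes (C1qa to Cd59a). Cst7, Itgax, Clec7a, Lgals3, C2 and C3 were not analysed here.

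Cortex was taken from 4 wild-type (WT) and 4 TDP-43Q331K mice, all 4 months old and all in batch 1, with 1 library per replicate. TDP-43 is an RNA-binding protein, and the Q331K substitution is linked to amyotrophic lateral sclerosis. The WT group is given as C57BL/6J in the sample labels and as the N substrain in the description of the design, so the substrain of the controls is uncertain. The labels do not name a promoter, say how the mutation was brought into the line, or give the sex. The tissue was not sorted, so for every gene below fewer cells of a type and less RNA per cell cannot be told apart. The labels number the replicates without stating that each is a separate animal, so p-values measure the spread between these 8 libraries, which may in part be technical.

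In the healthy brain, microglia carry receptors that read the state of neurons, among them the fractalkine receptor CX3CR1, the purinergic receptor P2RY12 and the growth factor receptor CSF1R, on which their survival depends. In many mouse models of neurodegeneration this homeostatic set is turned down while a programme of lipid handling, lysosomal and phagocytic genes is turned up, in part through the receptor TREM2 and its signalling adaptor TYROBP. Microglia are also the main source of C1q in the brain, the protein that opens the classical complement pathway and marks synapses, whereas C4 comes largely from other glia.

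Libraries held 45253021 to 58115164 counts, and levels are given in CPM, the count scaled to library size after TMM, a correction for composition. Here 1 CPM stood for at least 45.3 counts. Members of the list were covered by at least 49 counts in each library. Tardbp, the gene of TDP-43, averaged 185 ± 12.8 CPM in WT and 155 ± 11.7 CPM in TDP-43Q331K (SD, n = 4), a difference of -0.25 (SE 0.07) in edgeR's log2 fold change of mutant over WT, named the log2 difference here, with an adjusted p of 0.106, against 0.0117 in DESeq2. Libraries differed in markers of adjoining tissue. The summed level of 5 olfactory bulb markers ran from 27.9 to 174 CPM in WT and from 81.0 to 206 CPM in TDP-43Q331K. That of 6 choroid plexus markers ran from 16.5 to 403 CPM in WT and from 47.0 to 578 CPM in TDP-43Q331K. Here WT replicates 2, 3 and 4 were at 17.9 CPM or less, below every mutant library. WT replicate 1, at 403 CPM, was above every mutant library but replicate 4. All 6 choroid plexus markers had a positive log2 difference (median 1.12), and 0 passed edgeR's adjusted test. Xist was high in 2 libraries of each group, so the groups were balanced in sex.

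Neither the homeostatic, the disease-associated nor the complement genes differed between genotypes past the all-gene test. By edgeR's quasi-likelihood test with Benjamini-Hochberg adjustment over all genes, 0 of the 28 members were called at an adjusted p under 0.05, where 0.943% of all genes were (0.599% lower and 0.344% higher). At an unadjusted p under 0.05 there were 5 members, against 15.7% of all genes. P2ry12, Itgam, Siglech and Gpr34 were the 4 on the lower side in TDP-43Q331K, where the share of all genes was 7.77%, and C4b was the 1 on the higher side, where it was 7.91%. DESeq2 called 1 member, P2ry12, as lower, and 4.47% of all genes (2.63% lower, 1.84% higher). At an adjusted p under 0.10 edgeR also had P2ry12 alone, against 2.52% of all genes (1.43% lower). The voom and trend forms of limma called 0 members, against 0.956% and 1% of all genes. The levels of the groups did not overlap in 1 member, again P2ry12, against 9.68% of all genes (5.19% lower, 4.49% higher).

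The fit also bounded the differences. The 95% interval of the difference lay within 1.5-fold in either direction for 20 of the 28 members and within 2-fold for 25. Of the homeostatic genes 10 of 11 were held within 1.5-fold, of the disease-associated genes 6 of 10 and of the complement genes 4 of 7. The 3 whose intervals reached past 2-fold were Spp1, Gpnmb and Cd59a. The median log2 fold change was -0.123 over the homeostatic genes, 0.064 over the disease-associated genes and -0.008 over the complement genes, against 0.004 over all genes tested. It was negative in 9 of 11, 4 of 10 and 4 of 7 genes, and in 48.2% of all genes.

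**Figure D1:**
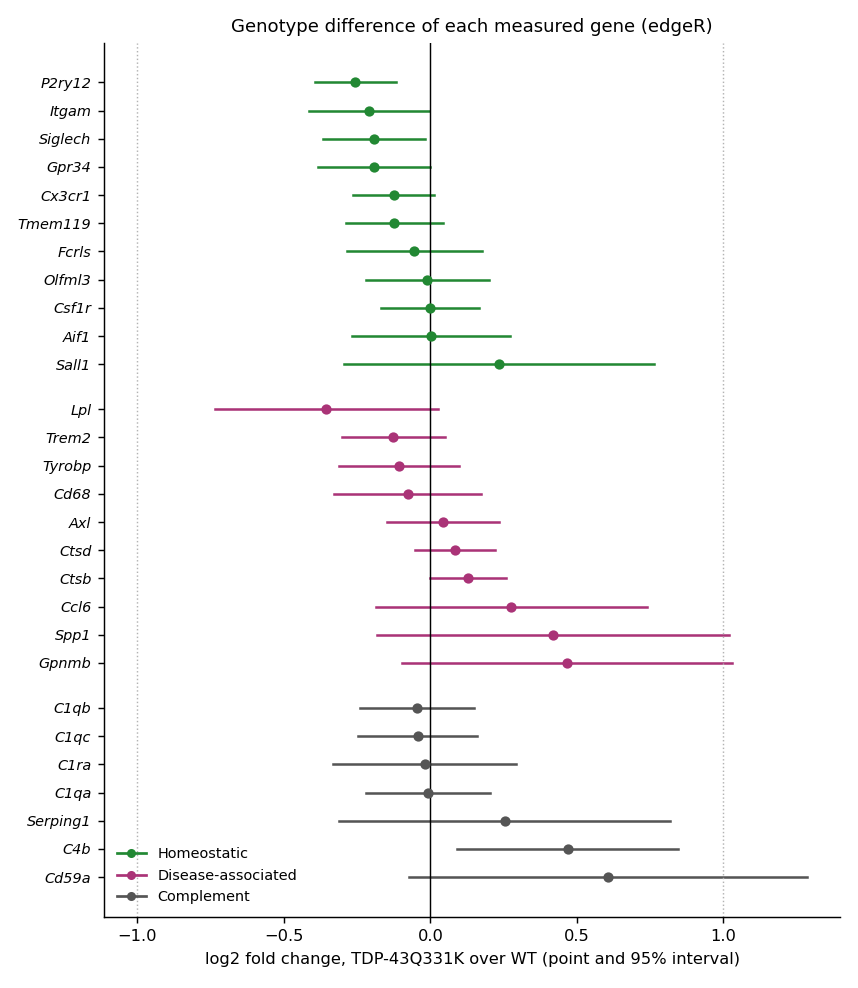
Log2 fold change of each of the 28 measured genes, TDP-43Q331K over WT (horizontal axis), as edgeR's estimate (point) with its 95% interval (line), coloured by list and sorted within it. The dotted lines mark a 2-fold change in either direction. The P2ry12 interval is clear of 0 at -0.39 to -0.12, and those of Spp1, Gpnmb and Cd59a reach past the dotted line at the right.

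P2ry12 had the lowest p of the list. Its product, P2RY12, is the ADP receptor through which microglial processes find and contact neurons and sites of injury. The level was 44.6, 43.0, 37.2 and 40.4 CPM in WT replicates 1 to 4 and 34.1, 33.5, 34.3 and 36.4 CPM in TDP-43Q331K replicates 1 to 4. The highest mutant library stood just under the lowest WT library, and the mutant libraries lay closer together than the WT ones. The means were 41.3 ± 3.22 and 34.6 ± 1.248 CPM (SD, n = 4), a log2 difference of -0.26 (SE 0.06, 95% interval -0.39 to -0.12). This missed the threshold in edgeR (adjusted p 0.0906) and passed it in DESeq2 (adjusted p 0.00744). The difference was -0.17 with the 5 olfactory bulb markers as a covariate (adjusted p 0.311) and -0.16 with thalamic and olfactory bulb markers together (adjusted p 0.443), both in edgeR. Over all 23 alternatives its adjusted p ran from 0.00744 to 0.611.

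The gene next to P2ry12, P2ry13, encodes a related ADP receptor that microglia also carry and is not a member of the list. It stood at 12.7, 13.8, 10.9 and 11.3 CPM in WT and at 8.92, 8.76, 9.48 and 9.61 CPM in TDP-43Q331K. Again every mutant library was below every WT library. The log2 difference was -0.41 (SE 0.09), with an adjusted p of 0.061 in edgeR and 0.00205 in DESeq2. With the olfactory bulb marker covariate it was -0.29 (edgeR adjusted p 0.229). Both receptors lie inside Med12l, a Mediator subunit gene of the opposite strand, and whether the authors counted by strand is not given. Med12l itself was at 46.3 ± 4.06 and 47.4 ± 3.95 CPM (SD, n = 4), a log2 difference of 0.03 with overlapping groups.

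The start regions of the neighbouring pair are shown because their transcripts were low in the same libraries. Each run covers 250 bases before and 50 after the annotated start, from RefSeq's annotation of GRCm38.p6, read 5′ to 3′ on the minus strand, at chr3:59262936-59263235 for P2ry12 and chr3:59210833-59211132 for P2ry13. Capitals mark the letters GAGGAA or, on the other strand, TTCCTC, the core of the site read by the macrophage transcription factor PU.1.
P2ry12: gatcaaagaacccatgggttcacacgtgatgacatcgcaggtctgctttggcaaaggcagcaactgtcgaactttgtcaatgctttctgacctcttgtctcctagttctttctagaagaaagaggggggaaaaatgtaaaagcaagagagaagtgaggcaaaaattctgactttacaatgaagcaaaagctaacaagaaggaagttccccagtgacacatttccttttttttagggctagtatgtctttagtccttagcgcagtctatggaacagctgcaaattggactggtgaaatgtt
P2ry13: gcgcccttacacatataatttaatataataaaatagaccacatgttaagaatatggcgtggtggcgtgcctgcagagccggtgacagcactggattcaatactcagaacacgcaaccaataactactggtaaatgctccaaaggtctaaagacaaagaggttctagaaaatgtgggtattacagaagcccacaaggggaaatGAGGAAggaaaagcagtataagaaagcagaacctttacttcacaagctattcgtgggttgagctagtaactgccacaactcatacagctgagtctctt
P2ry13 held 1 match and P2ry12 held 0. The motif, searched on both strands, which cannot overlap each other, was present in 28.3% of the 32851 start regions of the table. Start regions were found for 24 of the 34 members, and 14 of their 28 start regions (50.0%) held it. By gene, 13 of the 24 (54.2%) held it in at least 1 region, namely 4 of 8 homeostatic, 5 of 11 disease-associated and 4 of 5 complement genes. A match describes the letters of these windows only.

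The ratio of P2ry12 to other microglial transcripts of the same library was also computed. P2ry12 to Csf1r was 0.489, 0.526, 0.482 and 0.541 in WT and 0.467, 0.373, 0.435 and 0.438 in TDP-43Q331K, so the groups did not overlap. P2ry12 to Cx3cr1 averaged 0.824 ± 0.0375 and 0.753 ± 0.0315 (SD, n = 4), and here the groups met, with the lowest WT and the highest mutant value both at 0.787. P2ry12 to P2ry13 was 3.40 ± 0.197 in WT and 3.76 ± 0.0955 in TDP-43Q331K (SD, n = 4). This ratio was higher in the mutant and the groups did not overlap, with the highest WT value at 3.58 and the lowest mutant value at 3.62. P2ry12 to C1qb was 1.15 ± 0.106 in WT and 1.01 ± 0.146 in TDP-43Q331K (SD, n = 4), and here the groups overlapped. No test was made of these ratios, which were chosen after P2ry12 had been seen to differ.

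**Figure D2:**
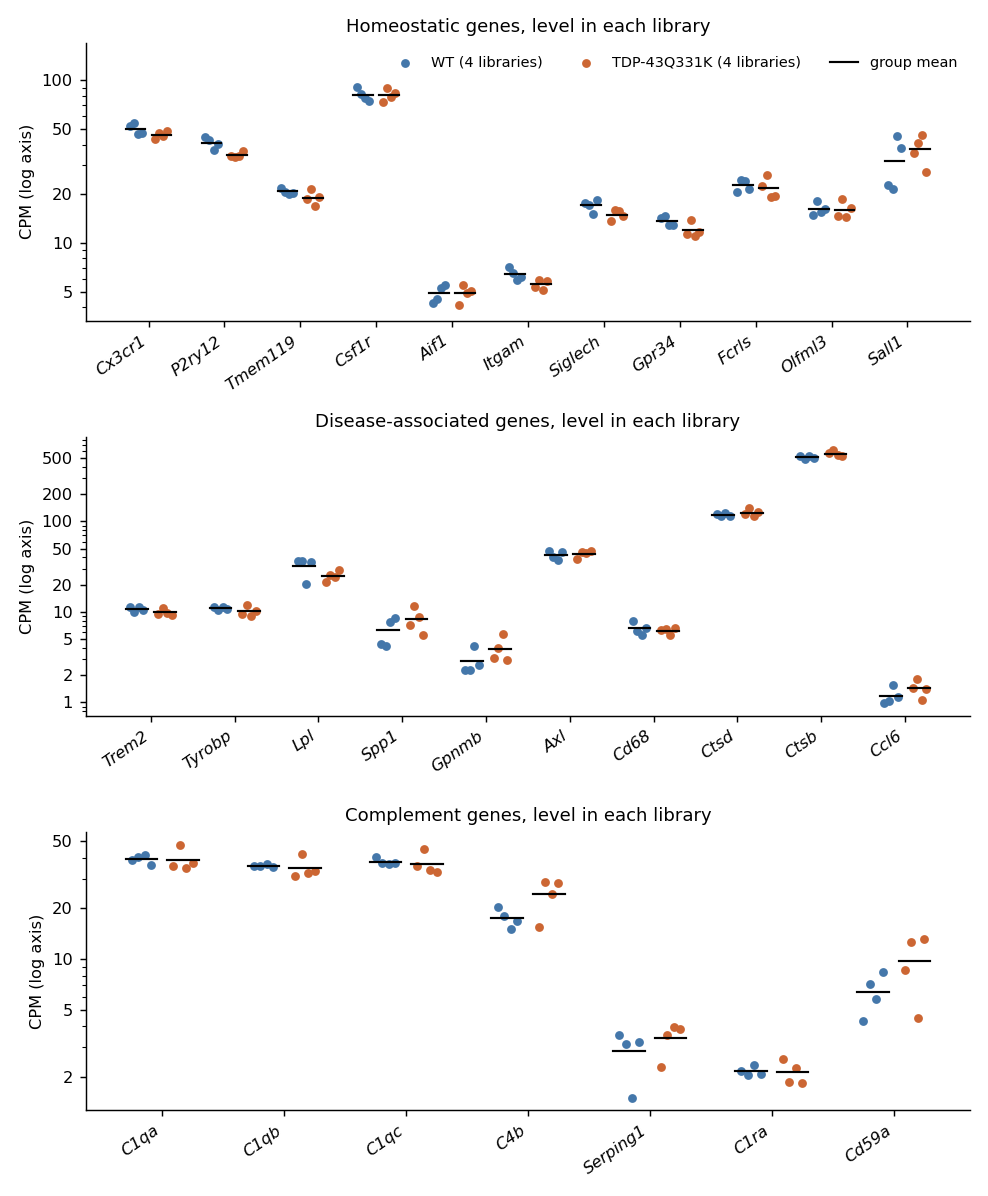
Level of each of the 28 genes in each library, in CPM on a log axis, for 4 WT and 4 TDP-43Q331K libraries, with replicates 1 to 4 from left to right within a group and the group mean as a line. The groups are apart for P2ry12 and overlap for the other 27 genes. Replicate 2 of TDP-43Q331K is the highest point for each of C1qa, C1qb and C1qc.

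Of the other surface receptors, Cx3cr1, the fractalkine receptor gene, was at 52.0, 54.7, 46.7 and 47.2 CPM in WT and at 43.3, 47.1, 44.996 and 48.5 CPM in TDP-43Q331K. Mutant replicates 2 and 4 lay inside the WT range and replicates 1 and 3 below it. This was a log2 difference of -0.13 (SE 0.06, adjusted p 0.367 in edgeR). Its ligand gene Cx3cl1, made by neurons, was at 720 ± 15.4 and 718 ± 79.2 CPM (SD, n = 4), a log2 difference of -0.003.

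Gpr34, a lysophosphatidylserine receptor gene, was at 14.2, 14.6, 12.9 and 12.8 CPM in WT and at 11.3, 13.8, 11.0 and 11.6 CPM in TDP-43Q331K. Replicate 2 was the only mutant library inside the WT range. It differed by -0.19 on the log2 scale (SE 0.09, adjusted p 0.31 in edgeR). Gpr34 lies inside Cask, on the opposite strand, which was at a log2 difference of 0.05. Siglech, a sialic acid-binding lectin gene, was at 17.6, 17.02, 15.03 and 18.3 CPM in WT and at 13.5, 15.9, 15.5 and 14.5 CPM in TDP-43Q331K, with a log2 difference of -0.19 (SE 0.08, adjusted p 0.271 in edgeR). WT replicate 3 was the only WT library inside the mutant range.

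Itgam encodes CD11b, the alpha chain of complement receptor 3, with which microglia engulf material tagged by C3 fragments. It was at 7.10, 6.48, 5.90 and 6.11 CPM in WT and at 5.32, 5.92, 5.11 and 5.78 CPM in TDP-43Q331K, so that the groups overlapped by a single library of each. Its log2 difference was -0.21 (SE 0.09, adjusted p 0.306 in edgeR). Its partner chain gene Itgb2 was at 4.76 CPM in both groups (SD 0.548 and 0.725, n = 4). A predicted gene of the same strand, Gm49368, shares 68.7% of the exonic bases of Itgam, so its counts are uncertain.

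Tmem119, which encodes a membrane protein used to tell microglia from other macrophages, was at 20.6 ± 0.831 and 18.9 ± 1.90 CPM (SD, n = 4), a log2 difference of -0.12 (SE 0.07). Csf1r stood at 81.2 CPM in both groups (SD 7.27 and 7.07, n = 4), with a 95% interval of the log2 difference from -0.17 to 0.17. Of its ligand genes, Csf1 was at a log2 difference of -0.02 and Il34, the neuronal ligand, at -0.18 (edgeR adjusted p 0.381). Aif1, the gene of the marker IBA1, was at 4.89 CPM in both groups (SD 0.604 and 0.587, n = 4). Fcrls, an Fc receptor-like gene, and Olfml3, a secreted matrix protein gene, were at log2 differences of -0.05 and -0.01. These 5 genes overlapped between groups and had adjusted p from 0.458 to 0.999 in edgeR. Csf1r shares 15.1% of its exonic bases with Hmgxb3 of the opposite strand.

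Sall1, a transcription factor gene that keeps microglia in their resident state, was the homeostatic gene that varied most. It was at 22.7, 21.5, 45.2 and 38.1 CPM in WT and at 35.8, 41.0, 45.8 and 27.3 CPM in TDP-43Q331K, a log2 difference of 0.23 (SE 0.24, adjusted p 0.678 in edgeR). The libraries low in Sall1, WT replicates 1 and 2 and TDP-43Q331K replicate 4, were those low in the 5 olfactory bulb markers (Calb2, Doc2g, Cdhr1, Eomes and Nmb). These summed to 27.9, 34.9, 174 and 121 CPM in WT and to 116, 206, 190 and 81.0 CPM in TDP-43Q331K, with all 5 measured. With these markers as a covariate Sall1 was at -0.16, and without the 3 libraries lowest in them at -0.03. Both alternatives were added after the data were seen.

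**Figure D3:**
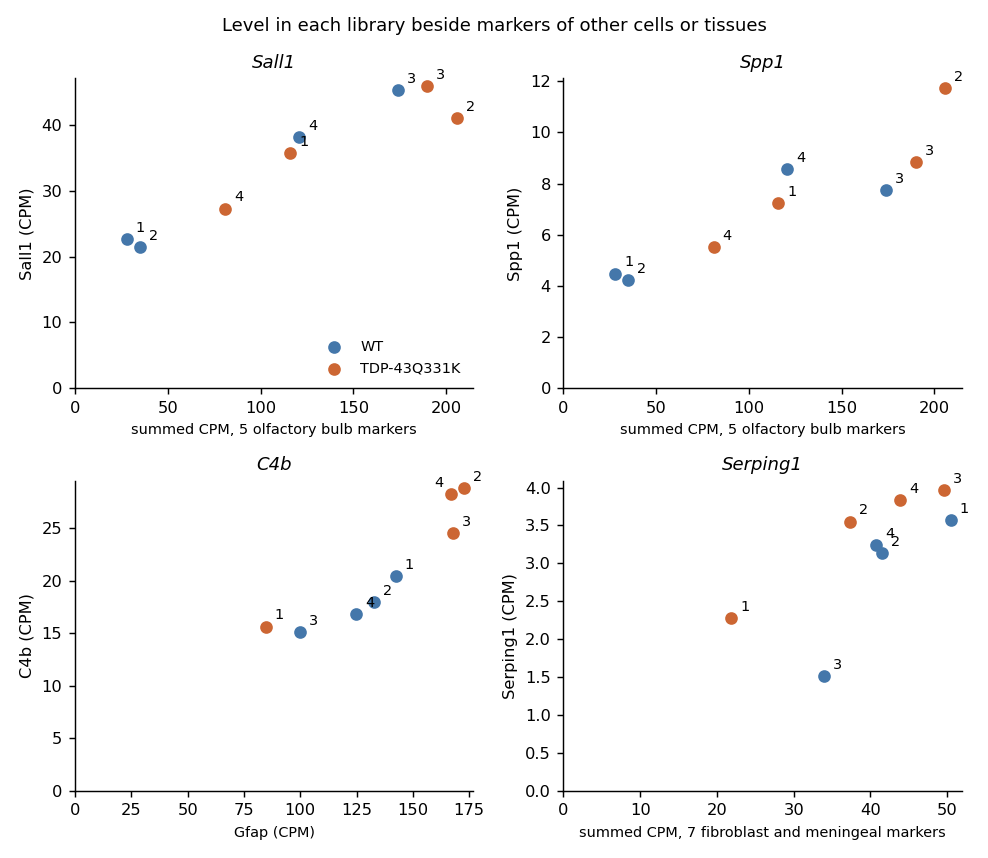
Level of Sall1, Spp1, C4b and Serping1 in each library (vertical axes, CPM) against the level of markers of other cells or tissues (horizontal axes, CPM), with points numbered by replicate. Sall1 and Spp1 are lowest in WT replicates 1 and 2, where the olfactory bulb markers sum to 27.9 and 34.9 CPM, C4b is at 24.5 CPM or more only in the 3 libraries with Gfap at 167 CPM or more, and Serping1 is lowest in WT replicate 3 and TDP-43Q331K replicate 1.

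Among the disease-associated genes, the receptor and its adaptor came first. Trem2, the lipid-sensing receptor gene, was at 11.2, 10.1, 11.4 and 10.4 CPM in WT and at 9.50, 11.1, 9.64 and 9.28 CPM in TDP-43Q331K, a log2 difference of -0.13 (SE 0.08, adjusted p 0.475 in edgeR). Tyrobp, which encodes the adaptor through which it signals, was at 11.4, 10.4, 11.5 and 10.7 CPM and at 9.58, 12.02, 9.08 and 10.1 CPM, a log2 difference of -0.11 (SE 0.09, adjusted p 0.613 in edgeR). In both genes replicate 2 was the highest mutant library and the only one, for Trem2, inside the WT range. The ratio of Trem2 to Tyrobp stayed between 0.917 and 1.06 over the 8 libraries.

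Lpl, the lipoprotein lipase gene of the lipid-handling programme, was on the lower side in the mutant. It was at 36.2, 36.9, 20.3 and 35.5 CPM in WT and at 21.3, 25.6, 24.6 and 29.2 CPM in TDP-43Q331K. WT replicate 3 was below every mutant library and the other 3 WT libraries above them. Its log2 difference was -0.36 (SE 0.17, adjusted p 0.349 in edgeR), and -0.52 without WT replicate 3, which passed the test (edgeR adjusted p 0.043). With the olfactory bulb marker covariate it was -0.13 (edgeR adjusted p 0.799). Neurons also express Lpl.

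Spp1, the osteopontin gene, was at 4.48, 4.22, 7.73 and 8.56 CPM in WT and at 7.24, 11.7, 8.82 and 5.52 CPM in TDP-43Q331K, a log2 difference of 0.42 (SE 0.27, adjusted p 0.489 in edgeR). It was low in the same 3 libraries as Sall1 and the olfactory bulb markers, and with these as a covariate it was at -0.02. A locus of the same strand, Gm42793, shares 18.8% of the exonic bases of Spp1, so the Spp1 counts are uncertain. Gpnmb, which encodes a glycoprotein of lysosomal stress, was at 2.26, 2.27, 4.26 and 2.58 CPM in WT and at 3.06, 4.04, 5.64 and 2.96 CPM in TDP-43Q331K. Of the WT libraries only replicate 3 lay inside the mutant range. Its log2 difference was 0.47 (SE 0.25, adjusted p 0.409 in edgeR), 0.73 without WT replicate 3, 0.24 without TDP-43Q331K replicate 3 and 0.13 with the olfactory bulb marker covariate, none of which passed the test. Whether olfactory bulb tissue has a part in these values was not tested.

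The cathepsin genes Ctsb and Ctsd were the most abundant members. Ctsb, the cathepsin B gene, was at 531, 485, 534 and 507 CPM in WT and at 570, 615, 538 and 526 CPM in TDP-43Q331K, a log2 difference of 0.13 (SE 0.06, 95% interval -0.0004 to 0.26, edgeR adjusted p 0.32). All but replicate 4 of the mutant libraries were above every WT library. Ctsb shares 12.8% of its exonic bases with Fdft1 of the opposite strand, which was called lower (log2 difference -0.35, edgeR adjusted p 0.0308). Ctsd, the cathepsin D gene, was at 119 ± 4.88 and 126 ± 10.8 CPM (SD, n = 4), a log2 difference of 0.08, and Cd68, a phagolysosome membrane gene, at 6.57 ± 0.974 and 6.22 ± 0.456 CPM (SD, n = 4), a log2 difference of -0.08. Axl, a receptor kinase gene for the engulfment of dying cells, was at 43.0 ± 4.401 and 44.3 ± 4.18 CPM (SD, n = 4), a log2 difference of 0.04. Ccl6, a chemokine gene and the member with the fewest counts, was at 1.18 ± 0.263 and 1.43 ± 0.298 CPM (SD, n = 4), a log2 difference of 0.28 (SE 0.21). The adjusted p of these last 4 genes was between 0.549 and 0.851 in edgeR. A gene of the same strand, Gm49369, shares 34.4% of the exonic bases of Ctsd, so the Ctsd counts are uncertain.

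The 3 chains of C1q had close group means, and 1 mutant library stood high in all of them. C1qa was at 38.9, 40.2, 41.3 and 36.1 CPM in WT and at 35.6, 47.7, 34.95 and 37.4 CPM in TDP-43Q331K. C1qb was at 35.5, 35.9, 36.9 and 35.3 CPM in WT and at 31.1, 42.3, 32.5 and 33.3 CPM in TDP-43Q331K. C1qc was at 40.6, 37.3, 36.8 and 37.0 CPM in WT and at 35.9, 44.8, 33.6 and 32.7 CPM in TDP-43Q331K. In WT, C1qa and C1qb were highest in replicate 3 and C1qc in replicate 1. In each gene TDP-43Q331K replicate 2 was the highest of the 8 libraries, and the other mutant libraries lay below the WT range, except replicate 4 for C1qa.

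The log2 differences were -0.01 (SE 0.10), -0.04 (SE 0.09) and -0.04 (SE 0.09) for C1qa, C1qb and C1qc, with the lowest 95% bound at -0.25 and the highest at 0.20, and edgeR adjusted p between 0.85 and 0.978. Without TDP-43Q331K replicate 2 they were -0.12, -0.15 and -0.15, with edgeR adjusted p of 0.388, 0.217 and 0.286. The coefficient of variation was 15.3%, 14.6% and 14.95% in TDP-43Q331K and 5.81%, 2.03% and 4.75% in WT. The ratio of C1qa to C1qb stayed between 1.02 and 1.14 over all 8 libraries, with a coefficient of variation of 3.51%. That of C1qb to C1qc ran from 0.867 to 1.02 (5.70%) and that of C1qa to C1qc from 0.957 to 1.14 (6.55%).

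The start regions of C1qb and C1qc are shown because both chains were high in TDP-43Q331K replicate 2, with the same source, strand convention and capitals as for the P2Y receptors, at chr4:136886151-136886450 for C1qb and chr4:136892865-136893164 for C1qc.
C1qb: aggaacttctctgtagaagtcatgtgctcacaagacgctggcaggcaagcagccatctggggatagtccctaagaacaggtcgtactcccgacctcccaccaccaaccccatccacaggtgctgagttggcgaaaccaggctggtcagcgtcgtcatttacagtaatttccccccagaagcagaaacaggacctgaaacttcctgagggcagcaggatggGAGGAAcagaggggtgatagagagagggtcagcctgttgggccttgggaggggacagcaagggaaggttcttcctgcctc
C1qc: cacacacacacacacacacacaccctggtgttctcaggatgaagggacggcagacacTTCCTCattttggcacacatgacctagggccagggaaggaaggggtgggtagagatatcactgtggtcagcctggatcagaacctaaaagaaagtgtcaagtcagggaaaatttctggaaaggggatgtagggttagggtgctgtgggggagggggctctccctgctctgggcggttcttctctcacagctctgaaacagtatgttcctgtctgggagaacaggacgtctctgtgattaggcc
Each window held 1 match, which on the strand shown reads GAGGAA in C1qb and its reverse complement TTCCTC in C1qc.

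Downstream of C1q, C4b encodes complement C4, which C1s cleaves, and in the brain it is made mostly by astrocytes and oligodendrocytes. It was at 20.4, 17.96, 15.1 and 16.8 CPM in WT and at 15.6, 28.8, 24.5 and 28.2 CPM in TDP-43Q331K. Mutant replicates 2, 3 and 4 were above every WT library, and replicate 1 was inside the WT range. The means were 17.6 ± 2.22 and 24.3 ± 6.09 CPM (SD, n = 4), a log2 difference of 0.47 (SE 0.17, 95% interval 0.09 to 0.85, edgeR adjusted p 0.219, DESeq2 adjusted p 0.0844). Without TDP-43Q331K replicate 1 it was 0.62 and passed the test (edgeR adjusted p 0.0377). The near-copy C4a was at 2.06 ± 0.289 and 1.76 ± 0.248 CPM (SD, n = 4), so the split of shared reads is uncertain. Its alignment of highest identity to a C4b transcript was 98.3% identical over 526 bases, which need not be all that the genes share.

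C4b was set beside the astrocyte markers. Gfap, the astrocyte filament gene, was at 142, 133, 99.9 and 125 CPM in WT and at 84.6, 173, 168 and 167 CPM in TDP-43Q331K, with the same 3 mutant libraries on top and the same pair of libraries, WT replicate 3 and TDP-43Q331K replicate 1, at the bottom. Gfap itself was at a log2 difference of 0.24 (edgeR adjusted p 0.591). The 8 astrocyte markers, all measured, summed to 4426 to 5305 CPM in WT and 4429 to 5041 CPM in TDP-43Q331K, and 0 of 8 passed the test. The sum was highest in WT replicates 1 and 2, unlike C4b, and 5 of the 8 markers were negative on the log2 scale, among them Sox9 at -0.21 and Aldoc at -0.09. With choroid plexus markers as a covariate C4b was at 0.17 (edgeR adjusted p 0.651), and with olfactory bulb markers at 0.58 (edgeR adjusted p 0.322). What part Gfap-expressing cells or choroid plexus have in the level of C4b was not tested.

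Of the regulators, Serping1 encodes the C1 inhibitor. It was at 3.57, 3.14, 1.51 and 3.24 CPM in WT and at 2.28, 3.55, 3.97 and 3.83 CPM in TDP-43Q331K, a log2 difference of 0.25 (SE 0.26, adjusted p 0.674 in edgeR). It was lowest in the libraries that were lowest in the 7 fibroblast and meningeal markers, WT replicate 3 and TDP-43Q331K replicate 1, at 34.0 and 21.8 CPM, against 37.4 to 50.5 CPM in the other 6 libraries. All 7 markers were measured and their part in the value was not tested. Without WT replicate 3 it was at 0.04, and with the choroid plexus covariate at -0.08.

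Cd59a, which encodes an inhibitor of the membrane attack complex, was at 4.28, 7.12, 5.77 and 8.40 CPM in WT and at 8.66, 12.6, 4.48 and 13.2 CPM in TDP-43Q331K. Mutant replicate 3 lay within the WT range and the other 3 above it. The log2 difference of 0.61 (SE 0.31, 95% interval -0.07 to 1.29, edgeR adjusted p 0.374) had the widest interval of the list. Its paralog Cd59b was at 1.405 ± 0.163 and 1.60 ± 0.0737 CPM (SD, n = 4). C1ra, a C1r protease gene, was at 2.17 ± 0.145 and 2.14 ± 0.340 CPM (SD, n = 4), a log2 difference of -0.02, and is 97.9% identical over 2432 bases to C1rb, so its counts are uncertain.

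Read by library rather than by gene, the members did not shift as a block. TDP-43Q331K replicate 2 was the highest library for 12 of the 28 members, among them the 3 C1q chains, Tyrobp and both cathepsin genes, yet it was the lowest for P2ry12. TDP-43Q331K replicate 3 was the lowest for 8 members and replicate 1 for 5. Of the 11 homeostatic genes, 9 had their minimum in one of these 2 libraries. Summed over the 11 genes, the homeostatic level was 311, 307, 305 and 301 CPM in WT and 276, 319, 291 and 287 CPM in TDP-43Q331K, so that mutant replicate 2 stood above and the other 3 below all WT libraries. Without Sall1 the sum was 288, 285, 259 and 263 CPM in WT and 239.97, 278, 245 and 259 CPM in TDP-43Q331K, and replicate 2 lay inside the WT range, with replicate 4 level with the lowest WT library.

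Leaving out TDP-43Q331K replicate 2 raised the members on the lower side at an unadjusted p under 0.05 from 4 to 9, namely P2ry12, Tmem119, Itgam, Siglech, Gpr34, Trem2, Tyrobp, C1qb and C1qc, none of which passed the adjusted threshold (edgeR adjusted p 0.165 to 0.312). In that fit 7% of all genes were on the lower side at this threshold. The count also rose without WT replicate 3, to 6, against 7.46% of all genes. With WT replicate 1, WT replicate 2 or TDP-43Q331K replicate 1 left out there was 1, against 5.79%, 6.56% and 7.39% of all genes. With TDP-43Q331K replicate 3 left out there were 2, against 6.71%. Without WT replicate 4 there were 4, against 8.18%, and without TDP-43Q331K replicate 4 there were 3, against 7.86%. The homeostatic median was -0.158 without TDP-43Q331K replicate 2 and -0.071 without replicate 3.

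**Figure D4:**
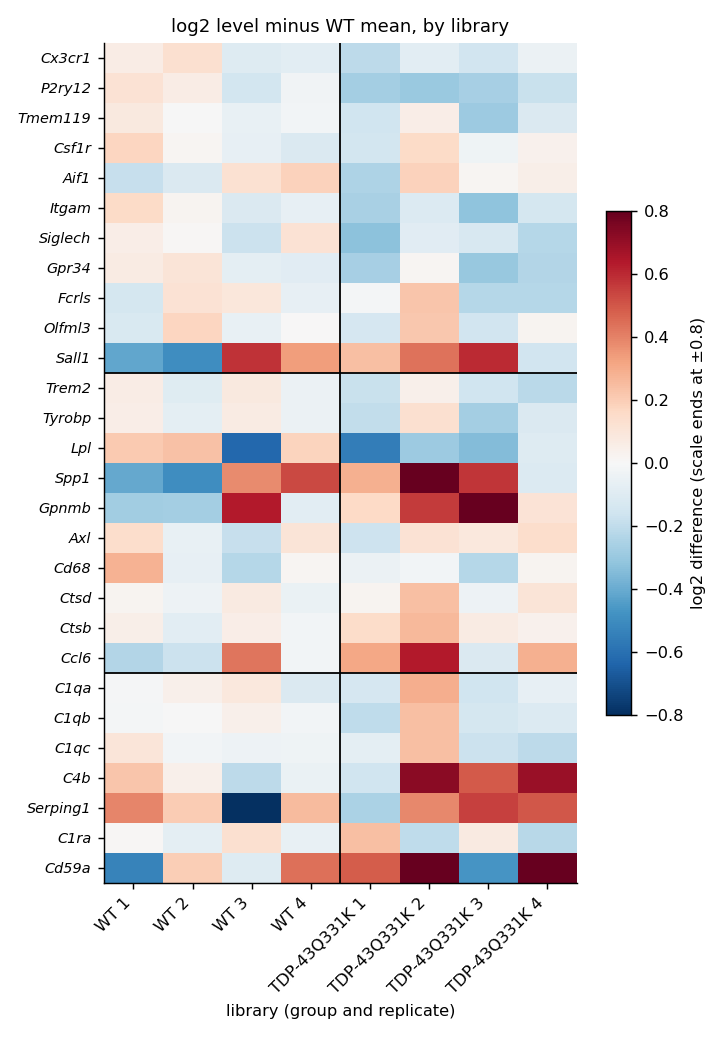
Difference of the log2 level of each gene (rows, ordered as listed) in each library (columns) from the WT mean of that gene, with blue for lower and red for higher and colours saturating at 0.8. The P2ry12 row is blue in all 4 TDP-43Q331K columns, the C1q rows are at their reddest in TDP-43Q331K replicate 2, and the rows of Sall1 and Spp1 are blue in WT replicates 1 and 2 and in TDP-43Q331K replicate 4.

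Each sex was compared on its own from Xist, with 2 libraries per group and no test. The values here are the log2 of the ratio of mean CPM, mutant over WT, and not edgeR's estimate. P2ry12 was at -0.25 in the Xist-high and -0.27 in the Xist-low libraries, and C4b at 0.43 and 0.50. Over the 28 members, 10 were negative in both, 9 positive in both and 9 of opposite sign. Tmem119 was at -0.02 in the Xist-high and -0.23 in the Xist-low libraries.

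Levels were compared between genes per kilobase of exon (RPKM), in WT. Ctsb stood at 85.0 RPKM and Ctsd at 50.4, followed by the C1q chains at 37.6 (C1qa), 32.99 (C1qb) and 19.6 (C1qc). Tyrobp was at 16.5 RPKM, P2ry12 at 16.2, Csf1r at 14.1 and Cx3cr1 at 11.1. P2ry12 in TDP-43Q331K was at 13.6 RPKM, below the 14.1 of Csf1r in both groups. C1ra, Ccl6 and Gpnmb were the lowest, at 0.727, 0.659 and 0.436 RPKM.

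The wider pathways were read from companion lists in the same fit. Of 28 measured genes among 30 further microglial markers, 0 passed edgeR's test, against 0.943% of all genes. Their median log2 difference was -0.010. At an unadjusted p under 0.05, 3 were on the lower side, against 7.77% of all genes. These were P2ry13, Slc2a5, a fructose transporter gene used as a microglial marker, at -0.25 with no overlap between groups, and Nckap1l, a gene of the actin-regulating WAVE complex, at -0.18. The groups did not overlap in 2 of the 28 genes, P2ry13 and Slc2a5, both lower, against 5.19% of all genes. Selplg, a selectin ligand gene, was at -0.14. Spi1, which encodes PU.1, was at 3.06 ± 0.261 and 2.85 ± 0.0879 CPM (SD, n = 4).

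Of 11 measured genes of signalling below TREM2 and CSF1R, 0 passed by edgeR or by DESeq2, against 0.943% and 4.47% of all genes. There were 0 with an unadjusted p under 0.05, against 15.7% of all genes. The lowest p was that of Syk, the kinase recruited by TYROBP, at -0.24 (edgeR adjusted p 0.334), followed by the lipid phosphatase gene Inpp5d at -0.15. Clu, a lipoprotein gene and TREM2 ligand, was at -0.10, and Plcg2, a phospholipase gene, at -0.18. The ligand gene Apoe was at 974 ± 33.2 and 969 ± 127 CPM (SD, n = 4). Of 12 measured ligands and checkpoints, 0 passed edgeR's test, against 0.943% of all genes. The groups did not overlap in 1 of the 12 on each side, against 4.49% higher and 5.19% lower over all genes. The "do not eat me" signal gene Cd47 was at 183 ± 3.03 and 199 ± 5.51 CPM and the inhibitory ligand gene Cd200 at 102 ± 9.12 and 91.5 ± 2.24 CPM (SD, n = 4), each with groups that did not overlap and log2 differences of 0.12 and -0.15 (edgeR adjusted p 0.186 and 0.266). Pros1, a ligand gene of AXL-family receptors, was at 0.16.

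Of 19 measured further genes of the disease-associated programme, 0 passed edgeR's test, against 0.943% of all genes. Their median log2 difference was 0.065, with 15 positive and 4 negative, where 48.2% of all genes were negative. At an unadjusted p under 0.05, 4 were on the higher and 2 on the lower side, against 7.91% and 7.77% of all genes. DESeq2 called 1, as lower, against 2.63%. The groups did not overlap in 1 of the 19 on each side, against 4.49% higher and 5.19% lower over all genes. Grn, the progranulin gene, was at 50.1, 50.8, 46.6 and 44.98 CPM in WT and at 39.4, 41.9, 41.1 and 43.1 CPM in TDP-43Q331K. Every mutant library was below every WT library. The log2 difference was -0.22 (SE 0.05), with an adjusted p of 0.0946 in edgeR and 0.0088 in DESeq2. Igf1, a growth factor gene, was at 0.33, Lgals3bp, a secreted lectin-binding protein gene, at 0.25, and the ferritin gene Fth1 at -0.14 on the log2 scale.

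In the list of other complement proteins, receptors and regulators, 1 of 23 measured genes passed edgeR's test, against 0.943% of all genes. It was Sez6, on the lower side, where the share of all genes was 0.599%. DESeq2 called 1 of the 23 lower and 1 higher, against 2.63% and 1.84% of all genes. The groups did not overlap in 2 of the 23 on the lower side and 1 on the higher, against 5.19% and 4.49%. Sez6, a neuronal membrane protein gene whose product carries complement-control domains, fell by 0.32 on the log2 scale (SE 0.05, adjusted p 0.0165 in edgeR), from a mean of 248 ± 8.34 CPM to one of 200 ± 9.71 CPM (SD, n = 4). Its levels were 247, 239, 259 and 250 CPM in WT and 202, 196, 189 and 212 CPM in TDP-43Q331K, with a clear gap between the groups. With each library left out in turn it passed 6 of 8 times, missing without WT replicate 1 (adjusted p 0.056) and without TDP-43Q331K replicate 3 (adjusted p 0.052). It also missed with the olfactory bulb (adjusted p 0.0585), thalamic and olfactory bulb (0.0795) and choroid plexus (0.056) covariates, with the replicate block (0.105) and without the 3 libraries lowest in olfactory bulb markers (0.206). The relatives Sez6l and Sez6l2 were at -0.04 and -0.03, and Csmd1, Csmd2 and Csmd3, which encode other neuronal complement-control proteins, at -0.12, 0.11 and 0.01. These relatives were chosen after their values were seen.

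Cd55, the gene of decay-accelerating factor, which dismantles the convertases, was at 5.12, 4.91, 4.83 and 4.70 CPM in WT and at 5.76, 6.54, 5.99 and 6.45 CPM in TDP-43Q331K. All mutant libraries were above all WT libraries, and the log2 difference was 0.34 (SE 0.08), with an adjusted p of 0.0918 in edgeR and 0.0322 in DESeq2. C7, a gene of the membrane attack complex, was at 1.44 ± 0.169 and 1.00 ± 0.250 CPM, and C3ar1, the receptor gene for C3a, at 1.69 ± 0.301 and 2.14 ± 0.218 CPM (SD, n = 4), with log2 differences of -0.52 and 0.34 (edgeR adjusted p 0.256 and 0.327).

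Of 13 measured inflammatory mediators, 0 passed edgeR's test, against 0.943% of all genes. DESeq2 called 1, as higher, against 1.84%. At an unadjusted p under 0.05, 3 were on the higher side, against 7.91% of all genes. The groups did not overlap in 1 of the 13, which was higher, against 4.49% of all genes. Nfkbia, the inhibitor gene that NF-kB induces, was at 17.6, 20.7, 24.2 and 22.9 CPM in WT and at 29.9, 31.9, 27.2 and 25.2 CPM in TDP-43Q331K. The groups did not overlap, and the log2 difference was 0.42 (SE 0.10), with an adjusted p of 0.0951 in edgeR and 0.00784 in DESeq2. It was 0.28 with the olfactory bulb covariate (edgeR adjusted p 0.306) and 0.59 with the choroid plexus covariate (edgeR adjusted p 0.0396). The receptor genes Tlr7 and Tlr2 were at 0.38 and 0.49 and their adaptor gene Myd88 at 0.21, with edgeR adjusted p from 0.216 to 0.381. Il1a, Il1b, Tnf, Il6 and Ccl2 were among 9 listed genes not analysed here.

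**Figure D5:**
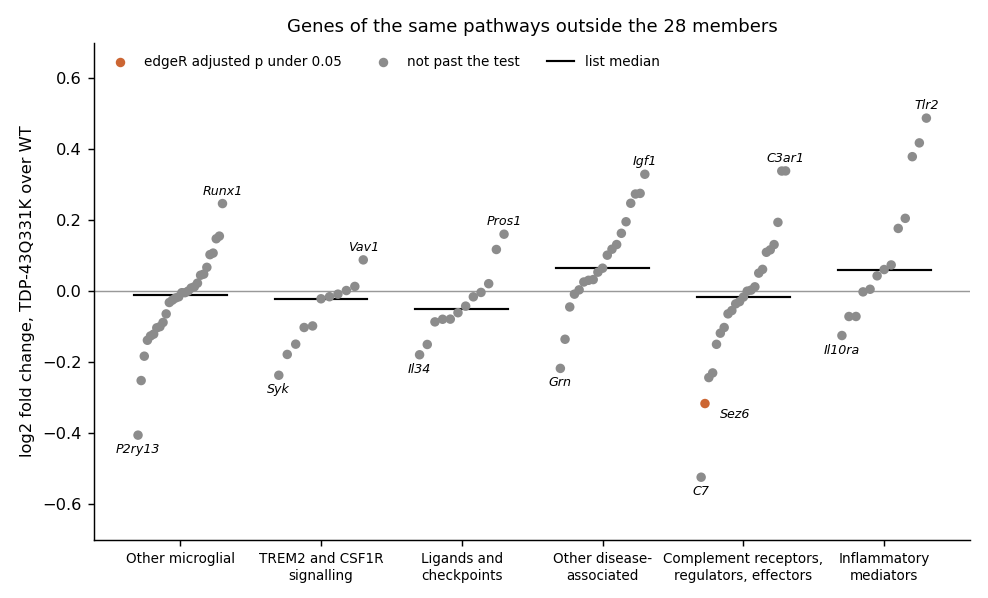
Log2 fold change, TDP-43Q331K over WT, of every measured gene of 6 companion lists, each point a gene and each line the median of its list, with the lowest and highest gene of a list named. Sez6 is the only gene past edgeR's test in these lists, and the medians lie between -0.051 and 0.065.

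Few of the listed markers of other immune cells were measured. Of 10 border macrophage markers, 4 were measured (Mrc1, Cd163, F13a1 and Stab1), summing to 13.6 to 21.6 CPM in WT and 17.03 to 21.2 CPM in TDP-43Q331K, and 0 passed the test. Of 10 markers of monocytes, neutrophils and lymphocytes, only the neutrophil gene S100a9 was measured, at 0.182, 0.190, 0.115 and 0.397 CPM in WT and at 1.24, 0.219, 1.06 and 0.382 CPM in TDP-43Q331K. TDP-43Q331K replicates 1 and 3 were high, and the log2 difference of 1.72 (SE 0.58) did not pass the adjusted test (adjusted p 0.186 in edgeR). Of 5 blood markers, 2 were measured, summing to 0.896 to 3.79 CPM in WT and 1.68 to 7.48 CPM in TDP-43Q331K. The 6 oligodendrocyte markers were all positive on the log2 scale, with a median of 0.103, and 0 passed.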

How the data were processed

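Polyadenylated RNA of frozen mouse cortex (8 samples) was sequenced on an Illumina platform from stranded libraries, per the labels' protocols. Per the submitters' processing notes, the reads were handled with GRCm39, STAR 2.7.6a, R 4.3.1 and edgeR 4.4.2, whose roles are not listed. No source used here gives the counting program or its strand setting. One deposited table holds unscaled counts of each gene and the other a normalised signal, which per the file headers is TMM-normalised and equals the deposited counts over TMM-scaled library sizes to within a relative 6.89e-16. Both hold the same 15693 genes, and 0 columns were unmatched.

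Symbols (for 15470 genes) and exonic lengths came from GENCODE M21, an annotation of GRCm38, and start regions from RefSeq. Near-copies were sought with megablast (BLAST 2.17.0). For each gene pair the alignment of highest identity over at least 50% of a member transcript is given, which need not be the longest.

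Genotypes were compared in R 4.3.3 with edgeR 4.0.16: TMM, filterByExpr (which removed 0 genes), genotype as the only term, and quasi-likelihood F-tests, two-sided, with 6 residual degrees of freedom. P-values were adjusted by Benjamini-Hochberg across the 15693 genes and called under 0.05. The test was tried on simulated counts first. No library was a copy of another of its group, with chi-square over its degrees of freedom at 14.6 to 28.0. The intervals cover the spread between libraries.

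Alternatives tried were scaling by RLE, by upper quartile or by library size alone, no filter, CPM over 1 in 4 libraries, DESeq2 1.42.0, limma 3.58.1 (voom, and trend on the deposited values after log2 with 1 added), a replicate block, Xist and tissue marker covariates, leaving out each library, and a call threshold of 0.10. The covariate of 5 olfactory bulb markers and the omission of the 3 libraries lowest in them were added after the data were seen.

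The members, companion lists and tests were chosen with earlier results of these data known. Named are all measured members, Tardbp, a few ligand and microglial genes fixed by name, up to 4 genes of each companion list with the smallest p, and otherwise genes said to be chosen after their values were seen, or given as neighbours, partners or near-copies of a member or as markers. A further gene fixed by name is not reported here.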

Additional observations from a re-analysis of the deposited data

Results flagged for a closer look

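Of 114 groups of 4 libraries examined, 7 held a library whose gap to its nearest neighbour was over 0.829 of the group's range (Dixon's 95% value), where chance gives about 1 in 20. Among the members, these were Lpl in WT replicate 3 at 20.3 CPM, where the next value was 35.5, Gpnmb in WT replicate 3 at 4.26 CPM, where the next was 2.58, and C1qc in WT replicate 1 at 40.6 CPM, where the next was 37.3. Among the companion genes, they were Slc2a5 in TDP-43Q331K replicate 4 at 3.83 CPM, Cd200 in TDP-43Q331K replicate 3 at 88.2 CPM, C7 in WT replicate 1 at 1.19 CPM and Myd88 in WT replicate 1 at 4.44 CPM.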

How the results depend on the processing

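The 28 members kept an adjusted p above the threshold under RLE, upper quartile and library size scaling, both filters, limma-voom, limma-trend, the replicate block and the Xist and marker covariates, while DESeq2 and the threshold of 0.10 each called 1 member, P2ry12. Over the fits without 1 library, 0 to 1 members were called (Lpl, C4b), and 1 to 9 were lower at an unadjusted p under 0.05. That count of 4, against 7.77% of all genes, was 1 with library size scaling (6.39% of all genes), 2 with the replicate block (5.74%) and 1 with the thalamic and olfactory bulb covariate (5.31%), the olfactory bulb covariate (5.78%) or the 3 libraries lowest in olfactory bulb markers left out (3.89%). P2ry12 was negative in all 23 alternatives. Same-numbered libraries of the groups did not deviate together (correlations -0.412 to 0.033, 0 libraries closest to their own number), so the block is no paired design.

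Over all genes, 148 calls became 701 with DESeq2 (288 higher, 413 lower), 396 at a threshold of 0.10, 14 with the replicate block, 13 with the thalamic and olfactory bulb covariate, 81 with the choroid plexus covariate, 42 with the olfactory bulb covariate, 2 with the 3 libraries left out, and 51 to 129 without 1 library. Tardbp passed with DESeq2 at -0.26. The disease-associated median was -0.020 with the choroid plexus covariate, and the complement median ran from -0.039 to 0.048.

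Some differences changed sign in some alternatives, none past the test, most of them near 0 but Spp1, Serping1 and Sall1 from 0.42, 0.25 and 0.23, and the cause was not tested. As log2 fold changes of mutant over WT from the fit named, with RLE scaling values were -0.0043 for Aif1. With library size scaling values were 0.015 for Csf1r, 0.0044 for Olfml3, 0.0064 for C1qa, 0.00030 for Csf1, 0.010 for Cx3cl1 and 0.0077 for Apoe. With upper quartile scaling values were -0.016 for Aif1. With the filter of CPM over 1 values were 2.1e-05 for Csf1r. With DESeq2 values were -0.0032 for Aif1. With limma-trend values were -0.00055 for Aif1. With the replicate block values were 0.00017 for Csf1r. With the thalamic and olfactory bulb covariate values were 0.074 for Csf1r, -0.17 for Aif1, 0.0094 for Olfml3, -0.22 for Sall1, -0.073 for Spp1, 0.053 for Cd68, 0.036 for Csf1, 0.014 for Cx3cl1 and 0.018 for Clu. With the choroid plexus covariate values were 0.045 for Fcrls, -0.10 for Axl, -0.082 for Serping1, 0.082 for C1ra and 0.051 for Cx3cl1. With the olfactory bulb covariate values were 0.064 for Csf1r, -0.12 for Aif1, 0.0095 for Olfml3, -0.16 for Sall1, -0.025 for Spp1, 0.036 for Cd68, 0.049 for Csf1, 0.0080 for Apoe and 0.0019 for Clu. With those 3 libraries left out values were 0.086 for Csf1r, -0.16 for Aif1, 0.013 for Olfml3, -0.029 for Sall1, 0.0031 for Cd68, 0.026 for C1qa, 0.048 for C1qc, 0.0078 for C1ra, 0.065 for Cx3cl1, 0.0022 for Apoe and 0.0010 for Clu. Over the fits without 1 library, values ran for Csf1r from -0.053 to 0.060, Aif1 from -0.063 to 0.069, Cd68 from -0.15 to 0.022, Csf1 from -0.093 to 0.039, Apoe from -0.072 to 0.069, Olfml3 from -0.091 to 0.052, C1qa from -0.12 to 0.040, Cx3cl1 from -0.062 to 0.047, Axl from -0.014 to 0.10, C1ra from -0.12 to 0.044, Fcrls from -0.16 to 0.00064 and C1qc from -0.15 to 0.0081.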
